A study of Mus musculus with 9 samples.

Results

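The expression of 10 genes of myeloid priming was followed in long-term haematopoietic stem cells (LT-HSCs) of 3 mouse genotypes. The genes were chosen by name, and all 10 were found among the 22322 genes of the deposited table. They are the transcription factor genes Cebpa, Cebpb, Spi1 and Gfi1, the cytokine receptor genes Csf1r and Csf3r, and the granule protein genes Lyz2, Mpo, Elane and Prtn3. The series compared C57BL/6 wild-type (WT) mice with Cxcl10-/- mice, which lack a chemokine, and Cxcr3-/- mice, which lack its receptor, all 6 to 8 weeks old. Each genotype had 3 libraries, each from 500 to 800 bone marrow cells of 1 mouse. The cells were sorted as negative for lineage markers, CD135 and CD48 and positive for Sca-1, c-Kit and CD150, and their polyA RNA was amplified as cDNA before library preparation. How the deletions were made, the sex of the mice and any shared litter or day of preparation were not given in the sources used here.

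Myeloid priming is the low expression of granulocyte and monocyte genes in stem and progenitor cells that have not yet committed to a lineage. PU.1, the product of Spi1, and C/EBP alpha, the product of Cebpa, together open the granulocyte-monocyte programme, while GFI1 favours granulocytes over monocytes and also restrains stem cell cycling. C/EBP beta takes part in emergency granulopoiesis, the raised output of granulocytes under infection or cytokine stimulation. In committed progenitors these factors act on genes of primary granule proteins, such as myeloperoxidase (Mpo), neutrophil elastase (Elane) and proteinase 3 (Prtn3), and on the receptors of M-CSF (Csf1r) and G-CSF (Csf3r).

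Upstream sequences of 4 granule protein genes are given because the levels of these genes lay far apart in the same libraries. Whether these sequences bear on the levels was not tested. They come from RefSeq windows on GRCm38.p6, are read 5′ to 3′ towards the gene and hold no annotated UTR base. Of the 10 members, 8 have an entry there (not Spi1 or Csf1r). Capitals mark matches, on either strand, to GAGGAA, a core of PU.1 and other ETS factors, to TTGCNNAA, a C/EBP core, or to AACNGTC, a MYB core.
Lyz2 (chr10:117282322-117282522, minus strand): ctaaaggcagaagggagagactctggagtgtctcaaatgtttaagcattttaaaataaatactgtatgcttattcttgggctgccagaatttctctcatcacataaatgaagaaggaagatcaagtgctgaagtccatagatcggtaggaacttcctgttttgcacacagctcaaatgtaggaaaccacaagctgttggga
Prtn3 (chr10:79879417-79879613, plus strand): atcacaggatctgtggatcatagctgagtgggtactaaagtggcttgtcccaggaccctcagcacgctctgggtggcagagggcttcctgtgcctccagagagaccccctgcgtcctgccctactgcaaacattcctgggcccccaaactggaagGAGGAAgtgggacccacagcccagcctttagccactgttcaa
Elane (chr10:79886062-79886246, plus strand): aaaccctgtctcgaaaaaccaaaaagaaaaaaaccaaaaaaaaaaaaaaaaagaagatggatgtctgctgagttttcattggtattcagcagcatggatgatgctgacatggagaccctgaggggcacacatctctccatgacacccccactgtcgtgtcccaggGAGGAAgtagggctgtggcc
Mpo (chr11:87793534-87793580, plus strand): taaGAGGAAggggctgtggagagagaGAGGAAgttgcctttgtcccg
The motifs were searched over the whole 250 bases upstream of each RefSeq start, of which the UTR-free part is printed. Prtn3 and Elane each held 1 GAGGAA, with its first base at position -95 and -85 from that start. Mpo held 2 GAGGAA, both in the printed part, and 1 AACNGTC outside it. Lyz2 held no exact match to any of the 3 motifs. Variants of these cores were not searched for, so such sites may be present. Among all 32851 windows of 250 upstream bases, 23.3% held GAGGAA, 9.56% held TTGCNNAA and 6.64% held AACNGTC. Prtn3 (chr10:79874476-79883174) and Elane (chr10:79886247-79888215) are neighbours on the plus strand in GENCODE M21 (GRCm38), with 3072 bases between them. The Prtn3 window lies inside the GENCODE gene, which starts further upstream.

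The expected counts summed to between 12098498 and 17904629 per library. Cxcl10 had 0 counts in each Cxcl10-/- library and 3 to 84 in WT, while Cxcr3 had 8 counts in WT replicate 3 and 0 in every other library and could not check its label. All 11 genes listed as LT-HSC markers were expressed in every group, with summed levels of 783 to 888 FPKM (a level scaled to transcript length and sequencing depth) in WT, 768 to 891 in Cxcl10-/- and 731 to 804 in Cxcr3-/-. Of these, Kit, the stem cell factor receptor gene used in the sort, fell in Cxcl10-/- against WT (log2 -0.75, adjusted p = 0.026 in edgeR's quasi-likelihood test). Slamf1, which encodes CD150, stood at 5.23 to 7.40 FPKM in WT, at 0.69, 0.71 and 4.12 in Cxcl10-/- and at 5.65 to 9.24 in Cxcr3-/-, without a call. Transcripts of the mitochondrial genome took 3.57 to 4.13% of the counts in Cxcl10-/-, 12.6 to 13.1% in WT and 10.2 to 11.2% in Cxcr3-/-.

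The 10 genes ranged from levels listed at 0 to the 99.1 percentile of all genes in the table (Lyz2). In WT the order by mean FPKM was Lyz2, Prtn3, Spi1, Csf3r, Gfi1, Cebpb, Mpo, Csf1r, Elane and Cebpa. Lyz2 made up 75.3 to 80.8% of the summed FPKM of the 10 genes in WT, 62.5 to 70.0% in Cxcl10-/- and 66.5 to 69.9% in Cxcr3-/-. Prtn3 made up 16.1 to 20.9%, 23.6 to 25.6% and 25.5 to 26.8% in the same groups. Neighbours in the WT order did not overlap between libraries from Lyz2 down to Csf3r, nor did Gfi1 and Cebpb. Csf3r overlapped with Gfi1, and from Cebpb down each gene overlapped with the next. In both knockouts Lyz2 was first and Prtn3 second, with Spi1, Csf3r and Gfi1 following. The order below them differed: Cebpb came before Csf1r in Cxcl10-/- without overlap, and the 2 genes overlapped in Cxcr3-/-.

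**Figure D1:**
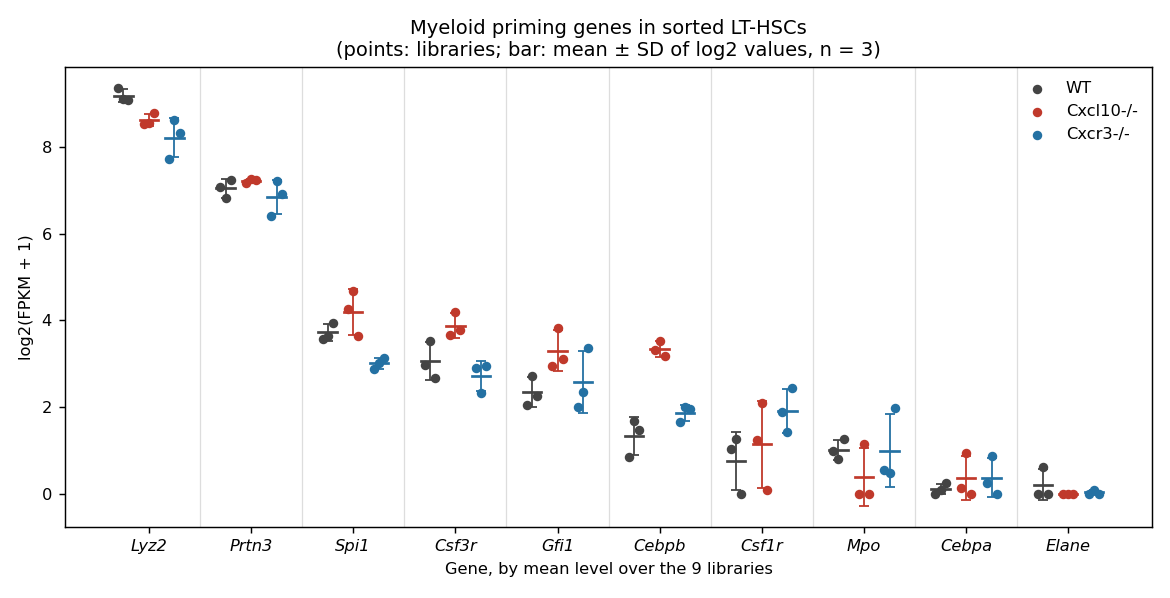
Level of each gene as log2(FPKM + 1) in each of the 9 libraries, by genotype; points are libraries, bars the mean ± SD of the log2 values (n = 3). Lyz2 and Prtn3 lie far above the other 8 genes, Cebpb is separated between Cxcl10-/- and the other groups, and Elane and Cebpa lie near 0.

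Among the granule proteins, Lyz2, which encodes lysozyme M, was the most abundant member in every library. It stood at 661, 548 and 543 FPKM in WT replicates 1 to 3, at 370, 373 and 441 in Cxcl10-/- and at 210, 391 and 318 in Cxcr3-/-. The WT libraries were above all knockout libraries, and the knockouts overlapped. Against WT the difference was -0.65 ± 0.22 in Cxcl10-/- (log2, SE, n = 3 per group; 1.57-fold lower) with an adjusted p of 0.0879 in edgeR, and -0.99 ± 0.22 in Cxcr3-/- (1.99-fold lower) with an adjusted p of 0.552. DESeq2 called both, with adjusted p of 0.0215 and 0.00136. For Cxcr3-/- it adjusted p over fewer genes than edgeR. edgeR also called both when genes of low level were not filtered out, with adjusted p of 0.0228 and 0.00151. limma on log2(FPKM + 1) called neither (0.103 and 0.441). Lyz2 shares 15.4% of its 50-base words with its paralogue Lyz1, which had at most 2.01 counts in any library; how reads common to both were assigned is not given in the sources used here.

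Prtn3, which encodes a serine protease of primary granules, stood at 133, 112 and 151 FPKM in WT, at 144, 153 and 149 in Cxcl10-/- and at 84.5, 147 and 120 in Cxcr3-/-. The 3 groups overlapped. In edgeR the difference from WT was 0.08 in Cxcl10-/- (95% interval -0.40 to 0.57, adjusted p = 0.865) and -0.23 in Cxcr3-/- (-0.72 to 0.25, adjusted p = 0.957). Its counts, 1109 to 2769 per library, placed it between the 95.1 and 96.8 percentile of all genes in the table. Its exons overlap Plppr3 on the opposite strand over 6.45% of its 50-base words, and Plppr3 stood at 1.78 to 5.90 FPKM.

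The ratio of Lyz2 to Prtn3, a quantity that does not depend on library scaling and was chosen after the values were seen, was 4.96, 4.90 and 3.60 in WT. It was 2.58, 2.44 and 2.96 in Cxcl10-/- and 2.48, 2.66 and 2.65 in Cxcr3-/-. The mean ± SD (n = 3) was 4.49 ± 0.769 in WT, 2.66 ± 0.271 in Cxcl10-/- and 2.60 ± 0.0971 in Cxcr3-/-, with WT above both knockouts in every library.

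**Figure D2:**
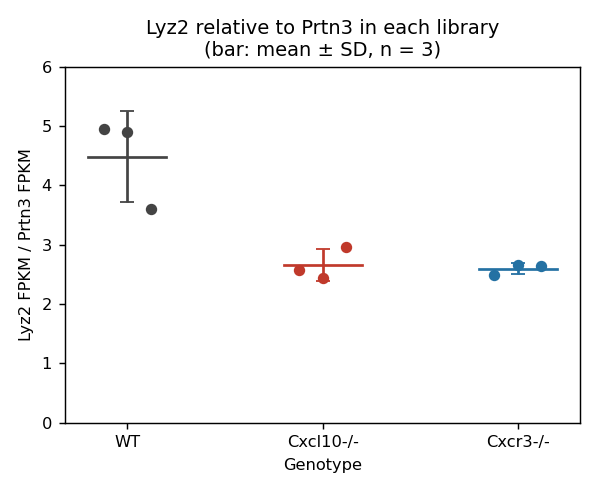
Ratio of the FPKM of Lyz2 to that of Prtn3 in each library, by genotype; points are libraries, bars the mean ± SD (n = 3). The WT libraries lie between 3.60 and 4.96, above all 6 knockout libraries, which lie between 2.44 and 2.96.

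Mpo, Elane and Cebpa did not reach the mean of 1 FPKM over the 9 libraries that was required for testing. Mpo, which encodes the peroxidase of primary granules, had 18, 27 and 47 counts in WT, 0, 24 and 0 in Cxcl10-/- and 10, 15 and 48 in Cxcr3-/-. It was thus found in 1 of 3 Cxcl10-/- libraries and in all others. Elane had 0, 8 and 0 counts in WT, 0 in each Cxcl10-/- library and 0, 1 and 0 in Cxcr3-/-. A count of 0 allows up to 3 counts, or 0.211 FPKM on average in the Cxcl10-/- libraries, so Prtn3 was there at least 704-fold higher per length than Elane. Such floors cover counting error only, since the reads carry no molecular identifiers. Without the filter, edgeR gave differences from WT in Cxcl10-/- of -1.83 ± 1.71 for Mpo (adjusted p = 0.637) and in Cxcr3-/- of -0.07 ± 1.65 (adjusted p = 1). None of the 3 genes was called in any comparison by edgeR without the filter.

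Of the transcription factors, Cebpa was nearly silent. It had 0, 2 and 7 counts in WT, 3, 28 and 0 in Cxcl10-/- and 5, 28 and 0 in Cxcr3-/-, at most 0.92 FPKM. Each knockout had 1 library at 0 and 1 with 28 counts, and the groups overlapped.

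Cebpb stood at 0.79, 2.22 and 1.75 FPKM in WT, at 8.88, 10.5 and 8.01 in Cxcl10-/- and at 2.13, 2.97 and 2.86 in Cxcr3-/-. The Cxcl10-/- libraries were above all others, without overlap. In edgeR the difference between Cxcl10-/- and WT was 2.44 ± 0.69 (5.43-fold) with an adjusted p of 0.0527, just outside the threshold of 0.05. limma (2.01 ± 0.36, adjusted p = 0.00663) and DESeq2 (2.44 ± 0.69, adjusted p = 0.00606) called it higher. Between Cxcr3-/- and Cxcl10-/- it was -1.75 ± 0.67 with an adjusted p of 0.12 in edgeR, 0.0562 in DESeq2 and 0.0208 in limma. Cxcr3-/- and WT overlapped (0.69 ± 0.66, adjusted p = 0.957 in edgeR). The exons of Cebpb overlap those of Tmem189 on the opposite strand, over 18.1% of its 50-base words. Tmem189 stood at 8.04 to 9.71 FPKM in WT, 13.3 to 29.7 in Cxcl10-/- and 5.68 to 21.2 in Cxcr3-/-. Without a stated strand setting, reads of the shared part cannot be told apart.

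Spi1 stood at 10.9, 11.5 and 14.4 FPKM in WT, at 18.3, 24.4 and 11.4 in Cxcl10-/- and at 6.32, 7.12 and 7.69 in Cxcr3-/-. The Cxcr3-/- libraries were below all others, while WT and Cxcl10-/- overlapped. Spi1 was lower in Cxcr3-/- than in Cxcl10-/- by edgeR (-1.32 ± 0.36, 2.50-fold, adjusted p = 0.036), by DESeq2 (adjusted p = 0.00845) and by limma (0.0294). The call ended in edgeR without the filter on low genes (-1.37, adjusted p = 0.0588), with only these 2 groups in the fit (-1.32, 0.114) and with a replicate block (-1.29, 0.0723). Against WT the difference in Cxcr3-/- was -0.77 ± 0.35 (adjusted p = 0.795), and in Cxcl10-/- it was 0.55 ± 0.35 (adjusted p = 0.372), both in edgeR. No other gene's transcript shares a 50-base word with Spi1.

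Gfi1, a zinc finger repressor gene, stood at 3.15, 5.62 and 3.75 FPKM in WT, at 6.74, 13.3 and 7.67 in Cxcl10-/- and at 2.98, 4.12 and 9.31 in Cxcr3-/-. Cxcl10-/- lay above WT in every library, and Cxcr3-/- overlapped with both. No difference passed in edgeR: it was 1.05 ± 0.52 for Cxcl10-/- against WT (95% interval -0.08 to 2.18, adjusted p = 0.241) and 0.35 ± 0.52 for Cxcr3-/- against WT (adjusted p = 0.987).

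The G-CSF receptor gene Csf3r was the more abundant of the 2 receptor genes. It stood at 6.82, 10.5 and 5.35 FPKM in WT, at 11.6, 17.3 and 12.7 in Cxcl10-/- and at 6.43, 3.98 and 6.65 in Cxcr3-/-. The Cxcl10-/- libraries were above all others, and WT and Cxcr3-/- overlapped. In edgeR Csf3r was lower in Cxcr3-/- than in Cxcl10-/- (-1.27 ± 0.37, 2.41-fold, adjusted p = 0.0478), as in DESeq2 (0.0143) and limma (0.0435). The call ended in edgeR with filterByExpr (-1.28, adjusted p = 0.0521), with only these 2 groups in the fit (-1.26, 0.0994) and with a replicate block (-1.23, 0.0929). Csf3r shares 10.7% of its 50-base words with other genes, most of them with AC105061.2 on the same strand, and its deposited counts were fractional in all 9 libraries. Cxcl10-/- against WT gave 0.78 ± 0.36 (95% interval -0.01 to 1.58, adjusted p = 0.212), and Cxcr3-/- against WT gave -0.48 ± 0.36 (adjusted p = 0.924).

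The M-CSF receptor gene Csf1r, on chromosome 18, stood at 1.03, 1.39 and 0 FPKM in WT, at 1.35, 3.27 and 0.06 in Cxcl10-/- and at 2.68, 1.68 and 4.38 in Cxcr3-/-. Cxcr3-/- lay above WT in every library, but within WT and within Cxcl10-/- the libraries ranged from near 0 upwards. The difference between Cxcr3-/- and WT was 1.79 ± 1.38 (adjusted p = 0.924 in edgeR). Csf1r shares 14.3% of its 50-base words with Hmgxb3 on the opposite strand, which stood at 0 to 4.44 FPKM.

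The first comparison asks what loss of the ligand changes. Of the 7 members tested in Cxcl10-/- against WT, edgeR called 0, against 7.22% of all 10866 genes. An unadjusted p under 0.05 was found for 2 members, Cebpb and Lyz2, and for 2637 of the 10866 genes. limma called 1 (9.28% of all genes), and DESeq2 called 2 (13.8%); without the filter edgeR called 1 (5.78%). Libraries of the 2 groups did not overlap for 4 of the 7, Cebpb, Gfi1, Csf3r and Lyz2, against 30.3% of all genes. The median difference was 0.78 over the 7 genes and 0.06 over all genes, with 6 of 7 above 0 and Lyz2 below. Prtn3 (0.08) and Csf1r (0.82) each turned below 0 when 1 of the libraries was left out. The share of all genes above 0 was not counted. In bulk samples, fewer cells of a type and less RNA per cell cannot be told apart.

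Cxcl10-/- replicate 2 was the highest of the 9 libraries for 6 of the 10 genes, Cebpa, Cebpb, Spi1, Gfi1, Csf3r and Prtn3. It also had the highest sums of mature neutrophil (186 FPKM), erythroid (635), stromal and bone (340), endothelial (714) and immediate-early genes (795). The same held for the LT-HSC markers (891) and the listed myeloid cytokine receptor genes (343). Its sums of monocyte and macrophage (63.7), dendritic cell (105) and B cell markers (112) were not the highest. Within the neutrophil list of 14 genes, S100a8 (148 FPKM) and S100a9 (30.3) were highest there, whereas Cxcr2 (6.32) was lowest there and Ngp, Camp, Retnlg, Ly6g, Fcnb, Chil3 and Mmp9 were at 0. The part of these RNAs in the members' values was not tested. Without it, the difference of Cxcl10-/- from WT was 2.35 for Cebpb (adjusted p = 0.0704 in edgeR), 0.73 for Gfi1 (0.437), 0.62 for Csf3r (0.345) and 0.28 for Spi1 (0.67), and that of Csf1r turned to -0.32 (0.916).

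The second comparison asks what loss of the receptor changes. In Cxcr3-/- against WT edgeR called 0 of the 7 members and 0% of all genes, with 681 genes and 2 members, Lyz2 and Spi1, at an unadjusted p under 0.05. limma called 0% as well. DESeq2 called 1 member, Lyz2, against 0.718% of all genes, and gave no adjusted p for Cebpb, Spi1, Gfi1, Csf1r and Csf3r. Genes without an adjusted p stay in the total of that share, so the adjustment covered fewer genes than the share. Without the filter edgeR called Lyz2 alone, against 0.186%. Libraries did not overlap for Lyz2, Spi1 and Csf1r, 3 of 7, against 19.8% of all genes. The median difference was -0.23 over the 7 members and 0.02 over all genes.

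In the third comparison, of Cxcr3-/- with Cxcl10-/-, edgeR called 2 of the 7 members, Spi1 and Csf3r, both lower. All genes called made up 10.5%, and those called lower 5.41%. limma called these and Cebpb (12.5% of all genes), DESeq2 the same 2 as edgeR (16.7%), and edgeR without the filter Csf3r alone (7.39%). Libraries did not overlap for Cebpb, Spi1 and Csf3r, 3 of 7, against 29.1% of all genes. The median difference was -0.71 over the members and -0.05 over all genes. The call of Spi1 ended without Cxcl10-/- replicate 2 (-1.05, adjusted p = 0.0843) and without Cxcr3-/- replicate 1 (-1.23, 0.134), 2 (-1.34, 0.085) or 3 (-1.40, 0.0833), all in edgeR. That of Csf3r ended without Cxcl10-/- replicate 2 (-1.10, 0.0961) or 3 (-1.29, 0.0624) and without Cxcr3-/- replicate 1 (-1.34, 0.122), 2 (-1.07, 0.144) or 3 (-1.41, 0.0882). The first and second comparisons share the WT libraries, and the third shares a group with each.

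**Figure D3:**
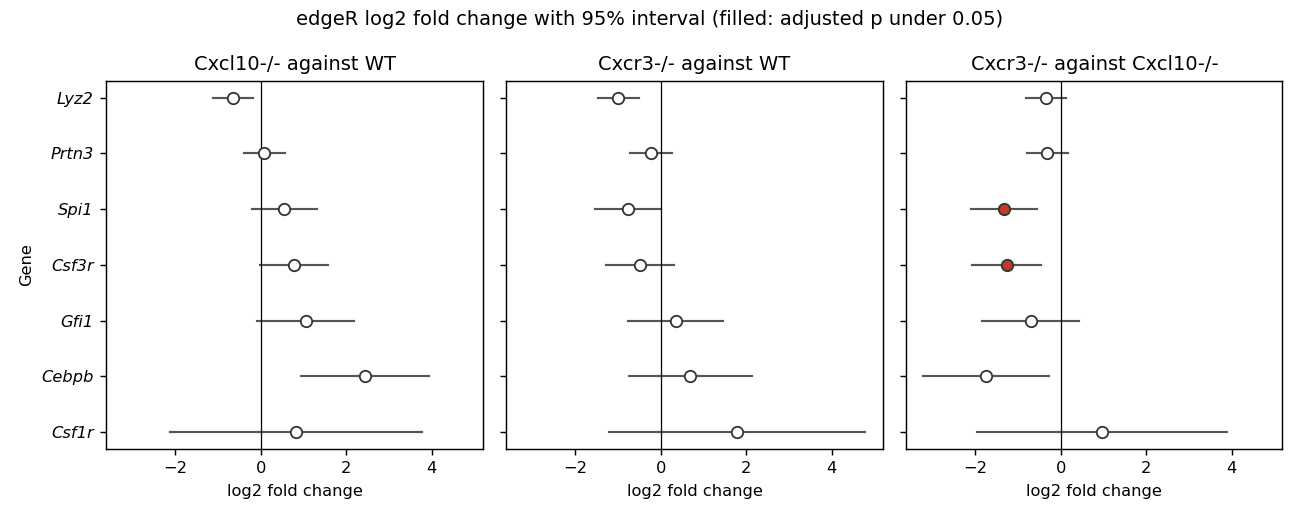
edgeR log2 fold change of the 7 tested genes in the 3 comparisons, with 95% intervals; filled points passed an adjusted p of 0.05. Only Spi1 and Csf3r in Cxcr3-/- against Cxcl10-/- are filled, and the intervals of Csf1r are the widest.

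Other genes of the granulocyte-monocyte programme moved in both directions. Some genes passed the filter only through the genotype in which they are high, which favours a difference. The lists were therefore counted over genes that kept a mean of 1 FPKM whichever genotype was left out. Of 30 listed genes, 25 were tested and 22 met this rule. In Cxcl10-/- against WT edgeR called 3 of the 22 higher and 2 lower (median 0.06). Of all 10866 genes, taken without this rule, it called 3.52% higher and 3.7% lower. In Cxcr3-/- against Cxcl10-/- these shares were 5.1% and 5.41%. The same shares apply to the lists below. Cyba, a subunit of the phagocyte oxidase, rose from 131 ± 22.8 to 367 ± 93.4 FPKM (log2 1.40 ± 0.26, adjusted p = 0.0096). Calr, which encodes a chaperone that myeloperoxidase needs to mature, rose by 0.79 (adjusted p = 0.0194), and Coro1a, an actin-binding protein gene of leukocytes, rose by 0.76 (adjusted p = 0.0486). Srgn, the proteoglycan core of granules, fell by 0.70 (adjusted p = 0.00604), and Nkg7, a granule membrane gene, fell by 0.98 (adjusted p = 0.0292). Hp, which encodes haptoglobin, passed the filter only through Cxcl10-/-, where it stood at 0.55, 42.1 and 0.75 FPKM, and was listed at 0 in every WT library. Against Cxcl10-/-, Cxcr3-/- had 2 of the 22 higher (Srgn and Cd34) and 3 lower, Cyba and Cd63 among them (median -0.26), and against WT it had 0 called (median -0.30). The elastase relative Ctsg was listed at 0 in 8 of the 9 libraries and at 0.33 FPKM in Cxcr3-/- replicate 3. Ms4a3, a marker of granulocyte-monocyte progenitors, stood at 5.57 to 9.48 FPKM in WT, at 0, 0 and 11.3 in Cxcl10-/- and at 5.56 to 13.2 in Cxcr3-/-.

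Of 22 other transcription factor genes of myeloid fate, 18 were tested and 16 met the same rule. In Cxcl10-/- against WT edgeR called 3 higher, the AP-1 genes Jun (2.90 ± 0.54, adjusted p = 0.0101) and Junb (2.69 ± 0.50, 0.00995) and the Kruppel-like factor gene Klf6 (1.33 ± 0.35, 0.0408). It called 2 lower, Cbfb, the partner of RUNX proteins (-1.20 ± 0.20, 0.00646), and Zeb2, a zinc finger repressor gene (-1.32 ± 0.29, 0.0212). The deposited FPKM of Zeb2 differed less than its counts, at 10.7 to 17.4 in WT and 8.47 to 11.4 in Cxcl10-/-, and the groups overlapped. Jun, Junb and Klf6 are also in the immediate-early list below and are counted there again. The median of the 16 was 0.09. In Cxcr3-/- against Cxcl10-/- these 5 genes were called in the opposite direction (median 0.07). None was called in Cxcr3-/- against WT (median 0.07). Of 15 myeloid cytokine receptor genes 14 were tested and 13 met the rule, and Kit alone was called in Cxcl10-/- against WT, with a median of 0.70. In Cxcr3-/- against Cxcl10-/- Kit and the pattern receptor gene Tlr2 were called higher and Csf2rb2, a beta chain of the IL-3 receptor, lower (median -0.43), and against WT none was called (median 0.16).

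Markers of several other cell types also stood apart in the Cxcl10-/- libraries, in which Cebpb, Gfi1 and Csf3r lay above every WT library. Monocyte and macrophage markers, 16 genes of which 6 were tested and 5 met the rule, summed to 43.7 to 72.5 FPKM in Cxcl10-/-, 12.6 to 28.9 in WT and 14.4 to 18.9 in Cxcr3-/-. Vcam1 (3.74 ± 0.64, adjusted p = 0.00705 in edgeR) and Mrc1 (2.51 ± 0.54, 0.0184) were higher against WT. Which cells the RNA of Vcam1 and Mrc1 came from was not tested. Vcam1 alone stood at 19.8 to 35.9 FPKM in Cxcl10-/-. Of the other tested genes, C1qb (mean 2.21 FPKM in WT, 9.86 in Cxcl10-/-) and C1qc (3.27, 4.66) had higher means in Cxcl10-/-. Cd68 (10.3, 7.21) and Ms4a7 (1.13, 0) had lower means, and none of these was called. Adgre1, Ly6c2, Ms4a7 and Timd4 were at 0 in every Cxcl10-/- library, Ly6c2 and Marco in every WT library and Timd4 in every Cxcr3-/- library. Mature neutrophil markers, 14 genes of which 5 were tested and 3 met the rule, summed to 27.3 to 186 FPKM in Cxcl10-/-, 19.4 to 33.3 in WT and 19.8 to 34.6 in Cxcr3-/-, with none called. Retnlg, Ly6g, Fcnb and Chil3 were at 0 in every library of both WT and Cxcl10-/-, Ltf and Lcn2 in WT alone of these groups, and Camp in Cxcl10-/- alone of them. In Cxcr3-/- Lcn2 and Chil3 were at 0 throughout.

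Endothelial markers, 12 genes, summed to 536 to 714 FPKM in Cxcl10-/-, 58.2 to 78.5 in WT and 40.5 to 75.6 in Cxcr3-/-, with none at 0 throughout a group. All 12 were tested, but 5 passed only through Cxcl10-/-, and 3 of the other 7, Cldn5, Fabp4 and Ackr1, were called higher against WT. Fabp4 alone stood at 287 to 455 FPKM in Cxcl10-/-. Libraries of WT and Cxcl10-/- overlapped for Emcn (means 43.6 and 43.5) and Pecam1 (6.11 and 7.55) and for no other gene of the list. Stromal and bone markers, 9 genes, summed to 82.5 to 340 FPKM in Cxcl10-/-, 2.03 to 6.85 in WT and 1.49 to 3.28 in Cxcr3-/-. Bglap was at 0 in every library, and of the 5 tested only Sparc met the rule and was called higher. Erythroid markers, 6 of 9 tested and 1 called higher, summed to 90.1 to 635 FPKM in Cxcl10-/-, 51.3 to 97.5 in WT and 60.2 to 64.7 in Cxcr3-/-. The B cell, T and NK cell, dendritic cell, megakaryocyte and mast cell, basophil and eosinophil lists had 0 called against WT in either knockout. Immediate-early genes, which respond within minutes to stimuli, had 9 of the 10 that met the rule called higher and summed to 403 to 795 FPKM against 82.7 to 93.4 in WT and 75.0 to 95.9 in Cxcr3-/-. The part of these RNAs in the levels of the 10 genes was not tested.

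**Figure D4:**
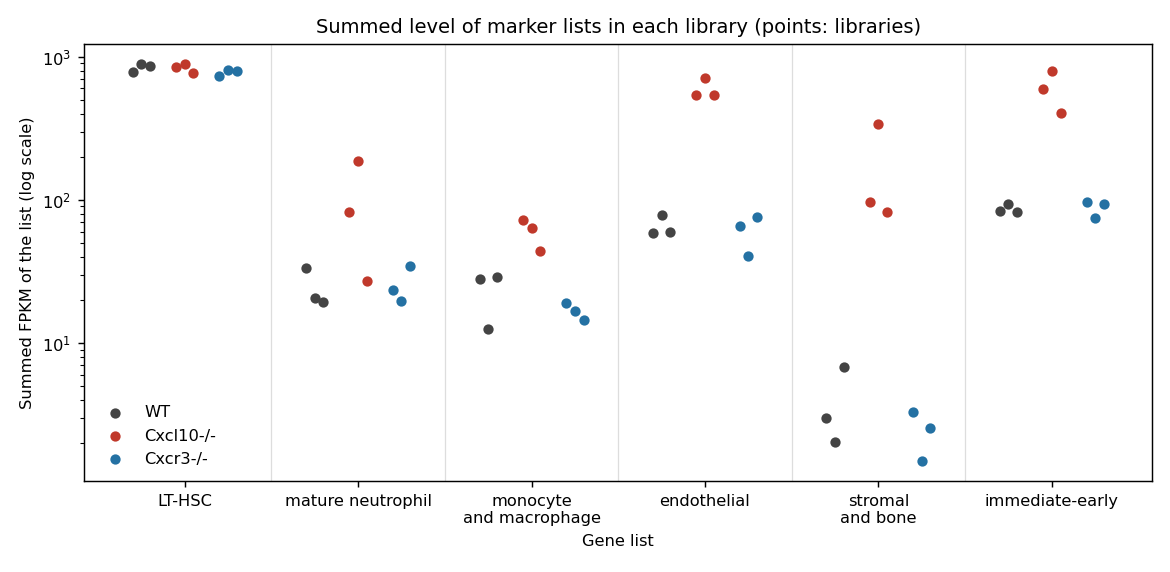
Summed FPKM of 6 gene lists in each library, on a log scale, by genotype; points are libraries. The LT-HSC list lies between 731 and 891 in all libraries. The monocyte and macrophage, endothelial, stromal and immediate-early lists are higher in all 3 Cxcl10-/- libraries than in the other 6.

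The profiles most like those of the 3 most variable tested members were found by the root mean square difference of gene-centred log2(FPKM + 1) over the 9 libraries. For Cebpb these were Adprs (0.163), Plk2 (0.235) and Xpnpep1 (0.239). Adprs, for example, stood at 3.86 ± 1.33 FPKM in WT (SD, n = 3), 16.2 ± 3.10 in Cxcl10-/- and 4.49 ± 0.889 in Cxcr3-/-. For Gfi1 they were Cnp (0.211), Dapk3 (0.246) and Dhodh (0.261), and for Csf1r Smurf1 (0.334), Cacnb2 (0.366) and Zfp428 (0.384). The libraries of a genotype also share their cell and RNA makeup.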

How the data were processed

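Bulk RNA was measured in 9 libraries of sorted LT-HSCs, 3 per genotype, each from 1 mouse, per the labels. The authors deposited FPKM and counts for 22322 genes; 87.1% of the deposited count values are whole, so they were treated as estimated counts and rounded. RSEM, HISAT2, fastp and StringTie are listed, without versions, per the submitters' processing notes; genome build, annotation, strand setting and FPKM denominator were not given in the sources used here. Testing was limited to the 10866 genes whose FPKM averaged 1 or more across libraries. The main test was edgeR 4.0.16 in R 4.3.3 (TMM factors, quasi-likelihood, 1 mean per genotype, all 9 libraries), with Benjamini-Hochberg adjustment over all genes tested and a threshold of 0.05. A log2 difference takes the second genotype named from the first. SE is the absolute log2 fold change divided by the square root of the F statistic, and intervals are 95% intervals from it. Errors beside FPKM are SD. limma 3.58.1 (intensity trend, log2(FPKM + 1), which understates the change of low genes) and DESeq2 1.42.0 (same counts; an adjusted p it did not give was left out) were alternatives, with other factors, filters, groups in the fit, libraries left out and a replicate block. The replicate numbers were not used as pairs, since no label ties them to a litter or day. Words of 50 bases were taken from GENCODE M21 transcripts; positions come from that annotation by Ensembl identifier. The members and lists were chosen with earlier results of these data known. All 10 members are named. From other lists, called genes are open to naming, at most the 4 with the smallest p per comparison. Cd68, C1qb, C1qc, Ms4a7, Emcn, Pecam1 and the markers listed at 0 fall outside that rule. So do Nkg7, Coro1a, Klf6, Zeb2, Cd34, Ackr1, Ctsg, Ms4a3, S100a8, S100a9, Cxcr2 and Slamf1 in at least 1 comparison. All of these were chosen after their values were seen. So was the rule that list genes keep their mean whichever genotype is left out; all 7 tested members meet it.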

Additional observations from a re-analysis of the deposited data

How the results depend on the processing

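A library was left out only in comparisons that hold its group. In Cxcl10-/- against WT the number of members called by edgeR, 0, became 1 with limma at a pseudocount of 1 or 0.1. It became 2 with DESeq2 and 1 without the filter. Leaving out any library of these groups gave 0 to 0. In Cxcr3-/- against WT the number of members called went from 0 to 1 with DESeq2 and without the filter. This number stayed between 0 and 0 without any library of these groups. In Cxcr3-/- against Cxcl10-/- the number went from 2 to 1 without the filter and 1 with filterByExpr. It was 0 with only the 2 groups compared, 0 with the replicate block, and 0 to 2 without a library of these groups. Directions turned, with no call, for Prtn3 in Cxcl10-/- against WT without WT replicate 2 (-0.037; from -0.037 to 0.17 over the libraries left out), for Csf1r there without Cxcl10-/- replicate 2 (-0.32; from -0.32 to 1.44), and for Gfi1 in Cxcr3-/- against WT without Cxcr3-/- replicate 3 (-0.30; from -0.30 to 0.65). The causes were not tested. Of all genes, the calls in Cxcl10-/- against WT went from 785 to 1498 (DESeq2), 1183 (no filter), 414 (2 groups), 442 (replicate block) and 193, 229 and 253 without WT replicates 2, 1 and 3. Of the 785 called by edgeR 383 were higher, and of the 1008 called by limma 663; in Cxcr3-/- against Cxcl10-/- these were 554 of 1142 and 510 of 1359. In Cxcr3-/- against WT they went from 0 to 78 (DESeq2), 38 (no filter) and, without Cxcr3-/- replicate 2, 6, and in Cxcr3-/- against Cxcl10-/- from 1142 to 1814 (DESeq2), 423 (2 groups), and 423 and 517 without Cxcr3-/- replicates 1 and 3. Same-numbered libraries did not deviate together (r across genes -0.0857 to 0.0309), and 4 of 18 comparisons of a library with another group were closest at its own number, so the block pairs libraries by number alone. Mpo, Elane and Cebpa had 0 to 48 counts per library.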
